A study of Mus musculus with 6 samples.

Results

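The genes of platelet-derived growth factor (PDGF) signalling at the cell surface were compared between mouse embryonic fibroblasts (MEFs) with and without Rnf40. They are the 4 ligand genes Pdgfa, Pdgfb, Pdgfc and Pdgfd and the 2 receptor genes Pdgfra and Pdgfrb, taken by their symbols from the deposited expression table, and make up 6 of its 29955 genes. RNF40 is part of the ubiquitin ligase that attaches a single ubiquitin to histone H2B, a mark of transcribed gene bodies, and the comparison asks how expression of these genes depends on it. RNA was sequenced from 3 Rnf40+/+ and 3 Rnf40-/- samples of MEFs, all at passage 3. MEFs are cultures of mesenchymal cells grown from mouse embryos in mid gestation. In the Rnf40-/- cells, loxP sites flanked exons 3 and 4 of Rnf40, and Cre-ERT2, expressed ubiquitously from Rosa26, was activated with 250 nM 4-hydroxytamoxifen (4-OHT) for 5 days, followed by 3 days without it. The methods name embryos homozygous for these alleles as the source of MEFs and no other source, but do not say so for the Rnf40+/+ samples by name. Whether the Rnf40+/+ cells received 4-OHT is not stated, so the deletion and the treatment cannot be told apart. Nothing says whether the samples of a genotype came from separate embryos, so the p-values measure only the spread between these samples, which may be technical.

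The value of a gene in a library is its normalized count, the number of reads on the gene divided by the size factor of that library. Reads on genes numbered 17053436, 20781071 and 26344170 in Rnf40+/+ and 18741606, 18115481 and 20495627 in Rnf40-/- libraries. The limit of detection was set at 3 reads, which come to 2.40 to 3.58 normalized counts depending on the library. Replicate 3 of Rnf40+/+ stood apart from the others of its genotype. The chi-square per gene between its reads and those of replicates 1 and 2 was 29.1 and 26.4, beside 8.11 between these. This measure grows with depth, and replicate 3 of Rnf40+/+ was also the deepest library. Among Rnf40-/- libraries it was 5.38 between replicates 1 and 2, 13.6 between 1 and 3, and 9.93 between 2 and 3. All values below are for replicates 1, 2 and 3 in that order, means carry the SD over 3 libraries, and a difference is that of Rnf40-/- against Rnf40+/+ in log2(normalized count + 1), with its standard error (SE). A gene was called higher or lower when limma gave it an adjusted p under 0.05, with the Benjamini-Hochberg method over the 16378 genes tested.

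PDGFs are secreted dimers that drive the proliferation and migration of mesenchymal cells. The products of Pdgfa and Pdgfb are cut to their active form inside the cell by proprotein convertases, whereas those of Pdgfc and Pdgfd are secreted with an inhibitory CUB domain that extracellular proteases remove. PDGF-AA and PDGF-CC act mainly through PDGFR-alpha, PDGF-DD mainly through PDGFR-beta, and PDGF-BB through both receptor tyrosine kinases, which pass the signal on through phosphoinositide 3-kinase, phospholipase C gamma and the RAS-MAP kinase cascade. PDGFR-alpha marks much of the embryonic mesenchyme, PDGFR-beta marks pericytes and vascular smooth muscle cells, and cultured fibroblasts carry both.

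Rnf40 itself was read first, as a check of the labels. The Rnf40+/+ libraries had 1278, 1195 and 1096 normalized counts of Rnf40, against 439, 519 and 487 with the deletion. Every Rnf40-/- library lay below every Rnf40+/+ library, at a mean of 40.5% of the Rnf40+/+ level. The counts cover the whole gene, so that reads of the exons outside the loxP sites are included.

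Both PDGF receptors and 2 of the 4 ligands were lower in Rnf40-/- MEFs, and none was called higher by limma, edgeR or DESeq2, nor had an unadjusted limma p under 0.05 in that direction. All 6 genes passed the filter on low counts, and 4 of the 6 were called lower, 0 higher and 2 not called. Among all 16378 genes tested, 24.1% were called lower, 23.3% higher and 47.4% in either direction, so that a call alone was common in these libraries. The median difference of the 6 genes was -0.40, beside -0.0035 over all genes tested. The order of the differences, from the largest fall upward, was Pdgfra, Pdgfrb, Pdgfa, Pdgfd, Pdgfc and Pdgfb, and the sign of each gene was the same under each scaling tried, although the call of Pdgfd was lost under upper-quartile scaling and in 4 of the 6 omissions of a library. Without replicate 3 of Rnf40+/+ the differences, in the same order, were -1.08, -0.63, -0.52, -0.39, -0.30 and 0.41, and all but that of Pdgfb were called.

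**Figure D1:**
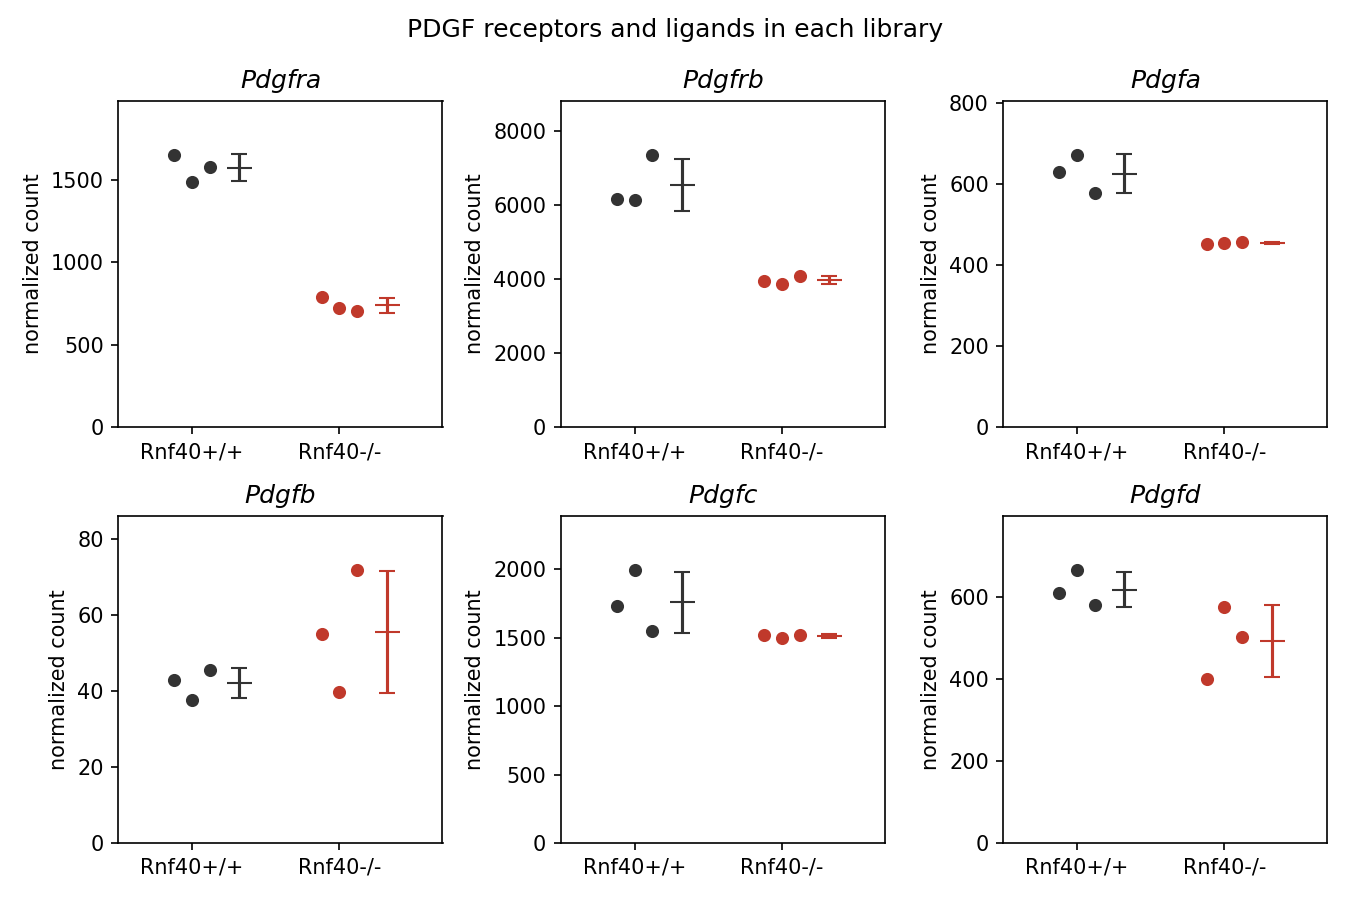
Normalized count (vertical axis, linear from 0) of each PDGF receptor and ligand gene in the 3 Rnf40+/+ (dark) and 3 Rnf40-/- (red) libraries; each point is a library, and the bar beside the points is the mean with its SD. The Rnf40-/- points of Pdgfra lie between 704 and 791, all below the Rnf40+/+ points, whereas those of Pdgfb overlap the Rnf40+/+ points.

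Among the ligands, Pdgfa encodes the chain of PDGF-AA, a growth factor for PDGFR-alpha-bearing progenitors (ENSMUSG00000025856, minus strand of chr5:139451968-139473324, mm9). Its normalized counts were 628, 671 and 577 in Rnf40+/+ and 452, 454 and 456 in Rnf40-/- libraries. All Rnf40-/- libraries lay close together and below the lowest Rnf40+/+ library. The mean went from 625 ± 47.3 to 454 ± 2.17 normalized counts (SD, n = 3), which is 72.6% of the Rnf40+/+ level. Pdgfa fell by 0.46 on the log2 scale (SE 0.09, 95% confidence interval -0.65 to -0.27, adjusted p = 0.000974 in limma with Benjamini-Hochberg adjustment). Of all genes tested, 19.9% had a lower log2 difference than Pdgfa.

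Pdgfd, the ligand that acts mainly on PDGFR-beta, was the other ligand called lower (ENSMUSG00000032006, plus strand of chr9:6168612-6378843, mm9). Its normalized counts were 609, 665 and 579.8 in Rnf40+/+ and 399.7, 575 and 502 in Rnf40-/- libraries. The genotypes did not overlap, but replicate 2 of Rnf40-/- came within a few counts of the lowest Rnf40+/+ library, and replicate 1 of Rnf40-/- stood well below the others. The mean went from 618 ± 43.2 to 492 ± 88.1 normalized counts (SD, n = 3), a fall of Pdgfd by 0.34 on the log2 scale (SE 0.12, adjusted p = 0.0374 in limma with Benjamini-Hochberg adjustment), so the result rests on a spread that is wide beside the difference. Without replicate 1 of Rnf40-/- the difference was -0.20 with an adjusted p of 0.180, and the adjusted p (limma with Benjamini-Hochberg) was also over 0.05 without replicate 3 of Rnf40-/- (0.0704) and without replicate 1 (0.0511) or replicate 2 (0.137) of Rnf40+/+, in a range of 0.0081 to 0.180 over the alternatives. In these last 3 omissions the differences were -0.36, -0.35 and -0.29, so that the first 2 lost the call without a smaller difference.

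Pdgfc encodes the chain of PDGF-CC, a ligand of PDGFR-alpha in craniofacial and other embryonic mesenchyme (ENSMUSG00000028019, plus strand of chr3:80840338-81017962, mm9). Normalized counts of Pdgfc were 1734, 1992 and 1552 in Rnf40+/+ and 1520.3, 1498 and 1521 in Rnf40-/- libraries. The Rnf40-/- libraries were nearly equal and lay just under the lowest Rnf40+/+ library, without overlap. The means were 1759 ± 221 and 1513 ± 13.3 normalized counts (SD, n = 3), and the difference of -0.21 (SE 0.09, 95% confidence interval -0.40 to -0.02) did not pass the threshold (adjusted p = 0.0624 in limma with Benjamini-Hochberg adjustment). Without replicate 3 of Rnf40+/+, the library with the lowest Pdgfc of its genotype, the difference was -0.30 and passed it (adjusted p = 0.00484 in limma with Benjamini-Hochberg adjustment, in a range of 0.00484 to 0.228 over the alternatives).

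Pdgfb, whose product recruits pericytes to vessels as PDGF-BB, had the lowest counts of the family (ENSMUSG00000000489, minus strand of chr15:79826330-79845238, mm9). Its normalized counts were 43.0, 37.7 and 45.5 in Rnf40+/+ and 55.1, 39.7 and 71.8 in Rnf40-/- libraries, from 36, 37 and 57 reads and from 54, 38 and 76 reads. The genotypes overlapped, since replicate 2 of Rnf40-/- lay within the Rnf40+/+ values while replicates 1 and 3 lay above them. The mean was 42.1 ± 3.97 in Rnf40+/+ and 55.5 ± 16.1 in Rnf40-/- (SD, n = 3), and the difference of 0.36 (SE 0.25, 95% confidence interval -0.20 to 0.91) did not pass the threshold (adjusted p = 0.275 in limma with Benjamini-Hochberg adjustment). The interval takes in a fall as well as a rise, so no direction was detectable for Pdgfb in these libraries.

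Pdgfra, the receptor for the A and C chains, showed the largest fall of the family (ENSMUSG00000029231, plus strand of chr5:75548316-75594229, mm9). Its normalized counts were 1652, 1488 and 1580.4 in Rnf40+/+ and 791, 723 and 704 in Rnf40-/- libraries. The Rnf40-/- libraries lay close together and far below all Rnf40+/+ libraries, without overlap. The mean went from 1573 ± 82.1 to 739.6 ± 45.7 normalized counts (SD, n = 3), or 47.0% of the Rnf40+/+ level. Pdgfra fell by 1.09 on the log2 scale (SE 0.08, 95% confidence interval -1.25 to -0.92, adjusted p = 4.79e-07 in limma with Benjamini-Hochberg adjustment). Of all genes tested, 5.24% had a lower log2 difference, and 5.72% were called lower with a log2 difference under -1, as Pdgfra was. The study had picked Pdgfra as downregulated from these same libraries, so its direction is not independent evidence. In these bulk samples, fewer cells that carry a receptor and less receptor RNA per cell cannot be told apart.

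Pdgfrb, the receptor for the B and D chains, was lower as well (ENSMUSG00000024620, plus strand of chr18:61204804-61244715, mm9). Normalized counts of Pdgfrb were 6166, 6134 and 7356 in Rnf40+/+ and 3961, 3885 and 4086 in Rnf40-/- libraries. Replicate 3 of Rnf40+/+ stood above the other libraries of its genotype, and all Rnf40-/- libraries lay below all Rnf40+/+ libraries. The mean went from 6552 ± 697 to 3977 ± 101 normalized counts (SD, n = 3), or 60.7% of the Rnf40+/+ level, and Pdgfrb fell by 0.72 on the log2 scale (SE 0.08, 95% confidence interval -0.88 to -0.55, adjusted p = 1.36e-05 in limma with Benjamini-Hochberg adjustment). Of all genes tested, 11.1% had a lower log2 difference than Pdgfrb.

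Levels can be set against each other between genes once they are divided by transcript length, here the summed length of all annotated exons of a gene in kilobases (kb). In Rnf40+/+ MEFs, Pdgfrb stood highest, at 1196 ± 127 normalized counts per kb (SD, n = 3). Pdgfc came next at 346 ± 43.4 normalized counts per kb, followed by Pdgfra at 234 ± 12.2. Pdgfa at 200.5 ± 15.2 and Pdgfd at 198 ± 13.9 normalized counts per kb did not differ beyond their spread, and Pdgfb was far below at 14.4 ± 1.36. MEFs thus held much more Pdgfrb than Pdgfra RNA, and Pdgfc was the most abundant ligand per kb. In Rnf40-/- MEFs the order was Pdgfrb at 726 ± 18.4, Pdgfc at 297 ± 2.62, Pdgfd at 158 ± 28.2, Pdgfa at 146 ± 0.70, Pdgfra at 109.8 ± 6.78 and Pdgfb at 19.0 ± 5.50 normalized counts per kb. Pdgfra thereby moved from rank 3 to rank 5, below Pdgfa, while Pdgfd and Pdgfa again did not differ beyond their spread. Divided by the longest transcript instead, Pdgfa stood above Pdgfra in Rnf40+/+ as well, at 304 ± 23.0 against 239 ± 12.5 normalized counts per kb, so that the place of Pdgfa depends on the length used, whereas Pdgfrb, Pdgfc and Pdgfb kept ranks 1, 2 and 6.

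The receptor and ligand mixture was described by 8 quantities (ratios, shares and sums), each tested with a two-sided exact permutation test over the 6 libraries, for which 0.1 is the smallest possible p, so that none of them can pass 0.05. The log2 ratio of Pdgfra to Pdgfrb levels per kb was -2.20, -2.34 and -2.52 in Rnf40+/+ and -2.62, -2.72 and -2.83 in Rnf40-/- libraries. Every Rnf40-/- library had less Pdgfra for its Pdgfrb than every Rnf40+/+ library, although the nearest libraries of the genotypes differed by less than the spread within each. The mean ratio was -2.35 ± 0.16 in Rnf40+/+ and -2.73 ± 0.11 in Rnf40-/- (SD, n = 3; exact p = 0.1, and 0.16 after Benjamini-Hochberg adjustment over the 8 quantities). Per kb, Pdgfrb was 5.13 ± 0.57 times the level of Pdgfra in Rnf40+/+ and 6.63 ± 0.49 times in Rnf40-/- MEFs (SD, n = 3).

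The make-up of the ligands was described by the share of each gene. Pdgfa held 26.8%, 25.8% and 26.7% of the summed ligand level per kb in Rnf40+/+ and 24.5%, 22.8% and 23.2% in Rnf40-/- libraries. The shares of the genotypes did not overlap and differed by -2.94 percentage points (exact p = 0.1, and 0.16 after Benjamini-Hochberg adjustment). Pdgfc held 45.5% ± 1.46 of the ligand level in Rnf40+/+ and 48.0% ± 2.29 in Rnf40-/- (SD, n = 3; exact p = 0.2). Pdgfd held 26.2% ± 0.66 and 25.4% ± 3.61 (exact p = 0.7), and Pdgfb 1.92% ± 0.35 and 3.07% ± 0.89 (exact p = 0.2; SD, n = 3 for both genes). Pdgfc was thus the leading ligand and Pdgfb a minor one in each of the 6 libraries.

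Summed over the 2 receptors, the level was 1429.6 ± 129 normalized counts per kb in Rnf40+/+ and 836 ± 17.3 in Rnf40-/- MEFs (SD, n = 3; exact p = 0.1). Summed over the 4 ligands, it was 759 ± 70.9 and 619.7 ± 25.5 normalized counts per kb (SD, n = 3; exact p = 0.1). With these lengths, the receptor sum exceeded the ligand sum in every library. The log2 ratio of ligand to receptor level was -0.87, -0.69 and -1.19 in Rnf40+/+ and -0.51, -0.36 and -0.43 in Rnf40-/- libraries, without overlap (exact p = 0.1, and 0.16 after Benjamini-Hochberg adjustment). Divided by the longest transcript instead, a length tried for these sums after seeing the data, the ligand sum was 1019.99 ± 98.3 in Rnf40+/+ and 830.4 ± 25.7 in Rnf40-/- normalized counts per kb, against receptor sums of 1448 ± 130.3 and 846 ± 17.5 (SD, n = 3). The ligand and receptor sums of the Rnf40-/- libraries then did not differ beyond their spread, and in replicate 2 of Rnf40-/- the ligand sum was the higher, at 848 against 827 normalized counts per kb.

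The sequence just before the transcription start was read from the promoter table of RefSeq (build GRCm38.p6). Entries were read for 4 of the 6 genes (Pdgfa, Pdgfc, Pdgfd and Pdgfra), 5 in all. The promoters of Pdgfb and Pdgfrb were not read, so whether they hold the motifs below was not tested. The 250 bases before the start are printed for Pdgfa, Pdgfra and Pdgfd, which were called lower, and for Pdgfc beside them. Each was searched on both strands for the GC box (GGGCGG, the core of sites for SP1-type factors), a motif in which EGR and SP1 sites overlap (GCGGGGGC), the TATA box (TATAAA), the AP-1 site (TGANTCA) and the CArG box, the site form of serum response factor (SRF). The motifs were chosen with these promoters in view, matches may overlap each other, and positions are counted back from the start. The printed stretches are chr5:138994945-138995194 on the minus strand for Pdgfa, chr5:75152001-75152250 on the plus strand for Pdgfra, chr9:6168236-6168485 on the plus strand for Pdgfd and chr3:81036166-81036415 on the plus strand for Pdgfc, 5′ to 3′ along the gene and with motif matches in capitals.
Pdgfa: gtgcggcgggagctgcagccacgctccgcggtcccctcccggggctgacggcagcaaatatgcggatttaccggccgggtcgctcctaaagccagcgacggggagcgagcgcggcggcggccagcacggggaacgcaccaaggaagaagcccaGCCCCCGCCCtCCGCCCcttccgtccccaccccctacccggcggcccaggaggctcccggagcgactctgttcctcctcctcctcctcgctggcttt
Pdgfra: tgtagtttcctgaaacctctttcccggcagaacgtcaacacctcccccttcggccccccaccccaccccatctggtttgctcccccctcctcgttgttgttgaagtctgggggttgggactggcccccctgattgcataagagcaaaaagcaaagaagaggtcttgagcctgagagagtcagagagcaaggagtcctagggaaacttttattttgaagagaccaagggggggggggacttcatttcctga
Pdgfd: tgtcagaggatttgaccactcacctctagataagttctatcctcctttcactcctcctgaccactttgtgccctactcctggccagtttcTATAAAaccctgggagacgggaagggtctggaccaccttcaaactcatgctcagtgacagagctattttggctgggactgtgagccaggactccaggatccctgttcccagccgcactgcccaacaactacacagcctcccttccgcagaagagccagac
Pdgfc: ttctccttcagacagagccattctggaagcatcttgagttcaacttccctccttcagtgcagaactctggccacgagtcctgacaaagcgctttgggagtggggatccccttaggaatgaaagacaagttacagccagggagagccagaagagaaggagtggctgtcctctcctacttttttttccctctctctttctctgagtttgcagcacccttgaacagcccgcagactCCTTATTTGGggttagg

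The Pdgfa stretch is rich in G and C, at 72.4% beside a median of 52.4% over 32851 promoters of the same length. It held 2 GC boxes on the reverse strand, at -93 to -88 and at -86 to -81, and the EGR and SP1 motif on the reverse strand at -97 to -90, which overlaps the former box. The other Pdgfa entry, chr5:138994282-138994531 on the minus strand, held 1 GC box at -60 to -55. Over all promoters, 32.7% held a GC box and 4.25% the EGR and SP1 motif, so that the former is a common match. The Pdgfra stretch had 54.4% G and C and none of these letters in either strand. The Pdgfd stretch held TATAAA at -160 to -155, as 12.4% of all promoters do somewhere in this window. The Pdgfc stretch held a CArG box at -17 to -8, which 1.47% of all promoters hold, and none of the stretches held the AP-1 letters, which 6.75% hold. A match is a description of the letters and not a measured site. Since the Pdgfra stretch held none of the motifs searched, none could be shared by all these stretches. The matches in the stretches of Pdgfa, Pdgfd and Pdgfc were of different motifs.

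The genes next to each family member on the chromosome, 2 on each side with a row in the table, were called in either direction or not called. Their distance from the member ranged from 8950 bases for Cdx1, beside Pdgfrb, to 831828 bases for Casp4, beside Pdgfd. Beside Pdgfra, Chic2 had 493 ± 10.8 and 499 ± 19.6 normalized counts in Rnf40+/+ and Rnf40-/- (SD, n = 3; difference 0.02, adjusted p = 0.881 in limma with Benjamini-Hochberg adjustment). Kit, the next receptor gene of the same class after Pdgfra, held between 2.83 and 16.7 normalized counts in the 6 libraries and was too low to test. Kdr, the endothelial receptor of the vascular growth factor VEGF and the gene after Kit, rose from 27.4 ± 6.47 to 84.5 ± 28.7 normalized counts (SD, n = 3) while Pdgfra fell. Csf1r, the receptor gene 20510 bases after Pdgfrb, had 371 ± 72.5 and 317 ± 8.04 normalized counts (SD, n = 3), and its difference of -0.21 did not pass the threshold (adjusted p = 0.212 in limma with Benjamini-Hochberg adjustment). Prkar1b, 19935 bases from Pdgfa, fell by 0.97 on the log2 scale, whereas Fam20c on the other side of Pdgfa rose by 0.44. Beside Pdgfd, Casp12 fell by 0.67 and Dcun1d5 rose by 0.17 on the log2 scale. Beside Pdgfc, Glrb rose by 1.23, and beside Pdgfb, Cbx7 rose by 1.05 and Rpl3 fell by 0.44. Heatr2 beside Pdgfa and Hmgxb3 beside Pdgfrb were also called higher. Tested and not called were A430033K04Rik beside Pdgfa, Lnx1 beside Pdgfra, Ctso beside Pdgfc, Apobec3 beside Pdgfb, and Casp4 and Dync2h1 beside Pdgfd. The remaining neighbours, Cdx1, Slc6a7, Gria2, Tdo2 and Snord83b, were not tested. Among all genes tested, 47.4% were called in either direction.

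The genes closest in profile to each family member were those with the smallest Euclidean distance over the 6 libraries, in log2 units after the Rnf40+/+ mean was subtracted, among 15498 genes with a mean above 15. For Pdgfra these were 1110038B12Rik and H1f0, at distances of 0.08 and 0.09. For Pdgfrb they were Smoc2 and Mmab, at 0.09 and 0.11. For Pdgfa they were Cd44 and BC064456, at 0.05 and 0.06, for Pdgfc Tgfb2 and Kcnj15, at 0.07 and 0.08, and for Pdgfd Ttll7 and C630043F03Rik, at 0.12 and 0.16. Pdgfb, the noisiest of the family, had no close companion, with AK196542 and mKIAA0694 at 0.24 and 0.26. A small distance says that the values run alike in these libraries and no more.

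The remaining results follow the pathway outward from the family, by lists of genes. Of 14 genes for proteases that activate PDGF precursors, their inhibitors and receptors, and proteins that bind PDGF, 13 were tested, of which 7 were called lower, 5 higher and 1 not called. Their median difference was -0.22, beside -0.0035 over all genes tested, of which 24.1% were called lower and 23.3% higher. Several proteases of the ligands were higher. Pcsk6 encodes the convertase PACE4, which can cut the A and B chain precursors, and had 394, 467 and 418 normalized counts in Rnf40+/+ and 1005, 1018 and 985 in Rnf40-/- libraries. All Rnf40-/- libraries of Pcsk6 lay more than 500 normalized counts above all Rnf40+/+ libraries, and it rose by 1.24 on the log2 scale (SE 0.08, adjusted p = 4.25e-07 in limma with Benjamini-Hochberg adjustment). Plat, tissue plasminogen activator and an activator of PDGF-CC, had 2976, 3396 and 3060.1 normalized counts in Rnf40+/+ and 5875, 5857 and 5569.8 in Rnf40-/- libraries. It was higher in every Rnf40-/- library, with a rise of 0.88 (SE 0.07, adjusted p = 1.02e-06 in limma with Benjamini-Hochberg adjustment). St14 encodes matriptase, which can process PDGF-CC and PDGF-DD, and rose from 51.1 ± 5.82 to 129 ± 30.0 normalized counts (SD, n = 3), without overlap. Plau, urokinase and an activator of PDGF-DD, rose by 0.53 on the log2 scale, while Furin, the general convertase of the A and B chains, fell by 0.37.

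Among genes whose products bind PDGF or its receptors, Thbs1, Sparc and Lrp1 were lower. Thbs1, thrombospondin 1 and the gene with the most counts in the list, had 254561, 295806 and 259001 normalized counts in Rnf40+/+ and 159566, 164378 and 152834 in Rnf40-/- libraries. The genotypes of Thbs1 were well apart, with a fall by 0.76 on the log2 scale (SE 0.11, adjusted p = 0.000137 in limma with Benjamini-Hochberg adjustment). Sparc, a matrix protein that binds the B chain, fell by 0.55 to 68.2% of its Rnf40+/+ level. Lrp1, an endocytic receptor that associates with PDGFR-beta, fell by 0.61 to 65.6%. A2m, the plasma protein alpha-2-macroglobulin, held at most 6.26 normalized counts in any library and was too low to test. Plau and Furin were named beside the rule for named genes, after their values were seen.

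Of 7 genes for co-receptors and partners of the PDGF receptors, all were tested, and limma called 5 lower, 0 higher and 2 in neither direction, with a median difference of -0.46. For comparison, 24.1% of all genes tested were called lower and 23.3% higher. The 2 co-receptor genes not called were Itgav, at -0.13, and Slc9a3r1, at 0.21. The latter, with an unadjusted limma p of 0.0290, was the only one of the 7 past 0.05 unadjusted in the higher direction. It was called higher under upper-quartile scaling and without replicate 3 of Rnf40+/+, but edgeR and DESeq2 called 0 of the 7 higher. Pdgfrl encodes a protein similar to the ligand-binding part of PDGFR-beta, and had 227, 268 and 352 normalized counts in Rnf40+/+ and 82.6, 83.5 and 85.9 in Rnf40-/- libraries. The Rnf40-/- libraries of Pdgfrl were nearly equal, while the Rnf40+/+ libraries were spread and far above them. Pdgfrl fell by 1.71 on the log2 scale, to 29.7% of the Rnf40+/+ level (SE 0.16, adjusted p = 5.95e-06 in limma with Benjamini-Hochberg adjustment), and is another gene the study listed as downregulated from these libraries. Itgb3, the beta chain of the integrin that associates with PDGFR-beta, fell by 0.55, and Slc9a3r2, a scaffold of the NHERF type that binds PDGF receptors, fell by 0.49 on the log2 scale. Cd44, a hyaluronan receptor and the gene with the most counts in the list, fell by 0.46 on the log2 scale, as Pdgfa did.

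**Figure D2:**
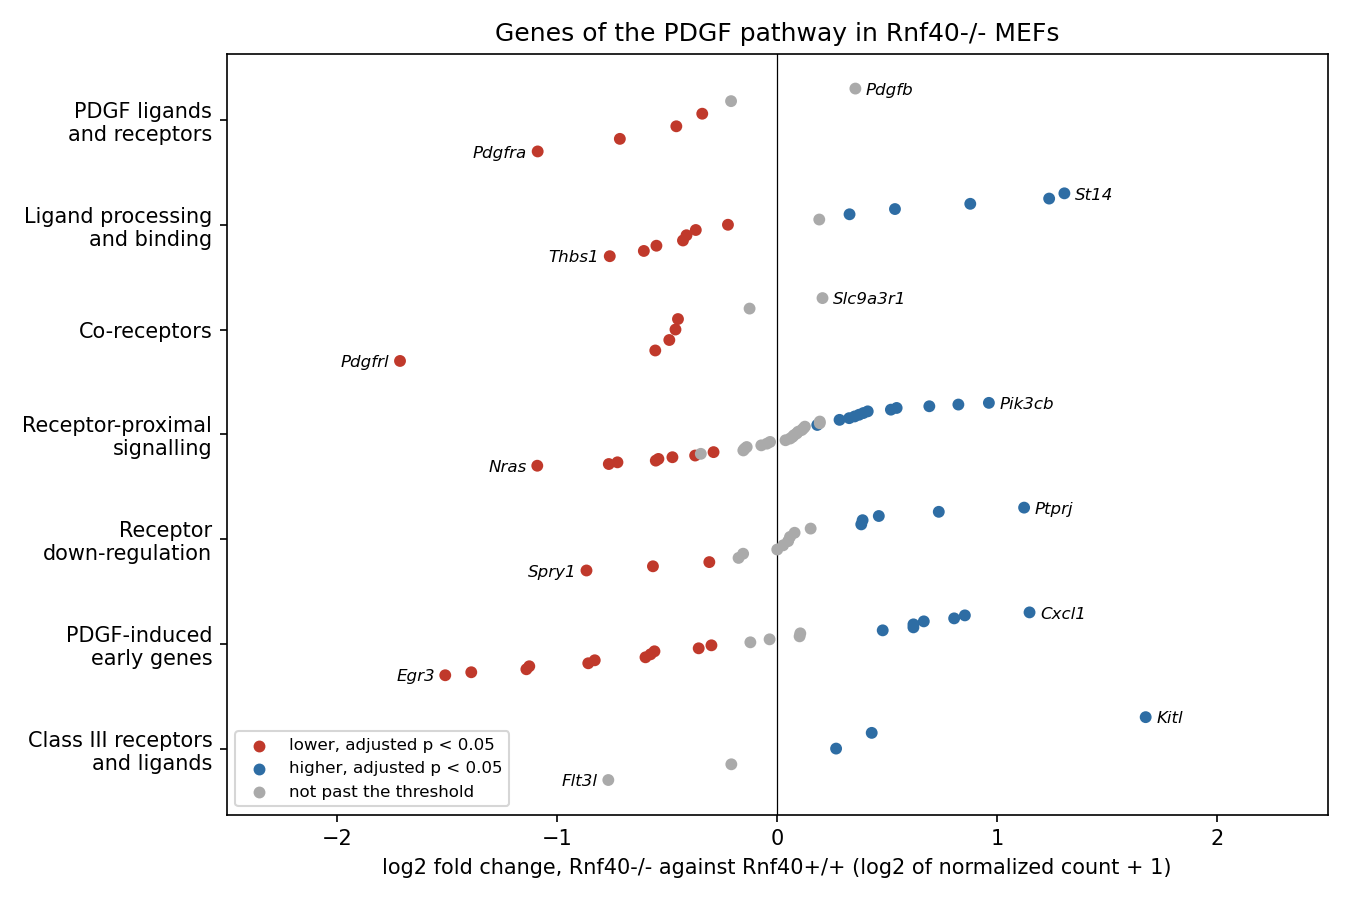
Difference of each tested gene of the PDGF family and of 6 pathway lists (horizontal axis, log2 fold change of normalized count + 1, Rnf40-/- against Rnf40+/+), with 1 row of points per list, each point a gene, red for lower, blue for higher and grey for not past an adjusted p of 0.05. The family and the co-receptors lie mostly left of 0, from Pdgfrl at -1.71, whereas the signalling and down-regulation genes lie on either side.

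Next come the genes inside the cell. Of 38 genes that pass the signal on from the PDGF receptors (adaptors, phosphoinositide 3-kinase, SRC kinases, the RAS-MAP kinase cascade and other genes), 12 were called higher, 8 lower and 18 not called, with a median difference of 0.08. Calls were thus about as frequent as among all genes tested, of which 23.3% were called higher and 24.1% lower. Nras, a RAS GTPase, had 3140, 3084 and 2830 normalized counts in Rnf40+/+ and 1385, 1459 and 1404 in Rnf40-/- libraries. Its genotypes were as far apart as those of Pdgfra, with a fall by 1.09 on the log2 scale (SE 0.07, adjusted p = 1.65e-07 in limma with Benjamini-Hochberg adjustment). Shc1, an adaptor that binds the phosphorylated receptors, fell by 0.77 to 58.8% of the Rnf40+/+ level. Grb10, an adaptor of receptor tyrosine kinases and the gene with the most counts in the list, fell by 0.48 on the log2 scale. Pik3cb, a catalytic subunit of phosphoinositide 3-kinase, rose from 362 ± 75.9 to 698 ± 58.3 normalized counts (SD, n = 3), a difference of 0.96. Gab1, a docking protein for the same kinase, rose by 0.82, and Braf, a kinase above MEK, rose by 0.69 on the log2 scale.

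Of 16 genes that end or dampen receptor signalling, 5 were called higher, 3 lower and 8 not called, with a median difference of 0.05, again near the 47.4% called among all genes tested. Ptprj encodes a receptor phosphatase that dephosphorylates PDGFR-beta, and had 607, 588 and 541 normalized counts in Rnf40+/+ and 1294, 1183 and 1304 in Rnf40-/- libraries. All Rnf40-/- libraries were above all Rnf40+/+ libraries, and Ptprj rose by 1.12 on the log2 scale (SE 0.08, adjusted p = 4.99e-07 in limma with Benjamini-Hochberg adjustment). Ptpn1, a phosphatase that acts on PDGF receptors within the cell, rose by 0.73 on the log2 scale. Feedback inhibitors of the MAP kinase cascade went both ways. Spry1, Spry4 and Spred1 fell by 0.87, 0.56 and 0.31 on the log2 scale, whereas Spred2 and Dusp6, named after their values were seen, rose by 0.39 and 0.38, and Spry2, at -0.18, was not called. Without replicate 3 of Rnf40+/+, 5 genes of this list were called lower.

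Of 22 early genes that PDGF induces in fibroblasts, 11 were called lower, 7 higher and 4 not called, with a median difference of -0.21. Among all genes tested, 24.1% were called lower and 23.3% higher. The EGR factors were lower. Egr1 had 3067, 2475 and 2028 normalized counts in Rnf40+/+ and 1226, 1244 and 942 in Rnf40-/- libraries. All Rnf40-/- libraries of Egr1 lay below all Rnf40+/+ libraries, and it fell to 45.1% of the Rnf40+/+ level (adjusted p = 3.92e-05 in limma with Benjamini-Hochberg adjustment). Egr2 went from 79.3 ± 19.6 to 29.6 ± 7.45 normalized counts and Egr3 from 112 ± 9.90 to 39.7 ± 10.9 (SD, n = 3). On the log2 scale Egr2 fell by 1.39 and Egr3 fell by 1.51. Egr1 and Egr3 are also among the genes the study chose on these libraries. The chemokine genes Cxcl1 and Ccl2 and the phosphatase gene Dusp1 went the other way, with rises of 1.15, 0.85 and 0.80 on the log2 scale. Ctgf, the gene with the most counts in the list, had 37014 ± 4053 and 35995 ± 816 normalized counts (SD, n = 3) and a difference of -0.03, which did not pass the threshold. The cultures received no PDGF as a stated treatment, so these are levels under the culture conditions used and not a response to a ligand.

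The class III receptor tyrosine kinases related to the PDGF receptors, with their ligands, made up a list of 7 genes, of which 5 were tested and limma called 3 higher, 0 lower and 2 in neither direction, with a median difference of 0.27. Over all genes tested, 23.3% were called higher and 24.1% lower. In the lower direction 1 gene of this list had an unadjusted limma p under 0.05, and edgeR and DESeq2 called 0. The genes that rose were all ligands. Kitl, the ligand of KIT, had 449, 435 and 377 normalized counts in Rnf40+/+ and 1343, 1392 and 1287 in Rnf40-/- libraries. Kitl was far higher in every Rnf40-/- library, unlike the PDGF ligands, with a rise of 1.67 on the log2 scale (SE 0.09, adjusted p = 5.22e-08 in limma with Benjamini-Hochberg adjustment). Csf1, a ligand of CSF1R, rose by 0.27 on the log2 scale. Il34, its other ligand, rose by 0.43 (adjusted p = 0.0422 in limma with Benjamini-Hochberg adjustment), but this call was lost in DESeq2, without the filter on low counts and in 5 of the 6 omissions of a library, in a range of adjusted p from 0.0272 to 0.124 over the alternatives, which were run for Il34 after seeing the data. Where the call was lost, the difference of Il34 was 0.44 in DESeq2, 0.43 without the filter and 0.36 to 0.50 in the omissions. The 2 genes not called were Csf1r, at -0.21, and Flt3l, at -0.77, and without replicate 2 of Rnf40+/+ 1 gene of this list was called lower. Kit was too low to test, and Flt3 held 2.04 normalized counts in replicate 1 of Rnf40-/- and 0 in the other libraries, so that of the other receptors of this class Csf1r alone could be tested.

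Markers of cell types were read beside the receptors, since Pdgfra belongs to the fibroblast markers and Pdgfrb to the mural ones. The cultures carried fibroblast genes at high counts, with Fn1 the highest, and 7 of 9 fibroblast markers were called lower, at a median difference of -0.75, whereas limma, edgeR and DESeq2 called 0 higher, with 0 also at an unadjusted limma p under 0.05. Beside this and the other marker lists stand 24.1% called lower and 23.3% higher among all genes tested. The 2 fibroblast markers not called were Dcn, at 0.20, and Lum, at -0.57, each highest of the 6 libraries in replicate 3 of Rnf40+/+. Dcn had 1140.5, 1137 and 1837 normalized counts in Rnf40+/+ and 1629, 1622 and 1368 in Rnf40-/- libraries. Omissions of a library were not run for the marker lists. The summed normalized counts of the 9 fibroblast markers were 663299, 698751 and 734147 in Rnf40+/+ and 399452, 396577 and 397773 in Rnf40-/- libraries. Of 11 markers of mural cells (pericytes and smooth muscle), 7 were called lower, 1 higher and 3 not called, with a median difference of -1.03. The list was split. Called lower were Tagln, Des, Acta2, Mcam, Myh11, Cspg4 and Pdgfrb itself. Rgs5 was called higher, at 0.59, and Abcc9, Notch3 and Kcnj8, at 0.40, 0.04 and -0.13, were not called. The sums of the 11 mural markers were 163815, 176363 and 163662 in Rnf40+/+ and 32965, 30927 and 36156 in Rnf40-/- libraries, mostly from Acta2, the smooth muscle actin that fibroblasts in culture also express. Pdgfrb thus fell less on the log2 scale than the median mural marker, and Pdgfra more than the median fibroblast marker, where each median includes the receptor itself. The difference of Pdgfrb, at -0.72, was lower than those of the mural markers Rgs5, Abcc9, Notch3 and Kcnj8. The part of cell composition in the fall of either receptor was not tested.

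Of 7 macrophage markers, 6 were tested, of which 2 were called higher, 1 lower and 3 not called, with a median difference of -0.03. Their sums were 4874, 5503 and 8827 in Rnf40+/+ and 3499, 3233 and 3536 in Rnf40-/- libraries, mostly from Lyz2. Replicate 3 of Rnf40+/+ had the highest sum and the highest Pdgfrb, and was the highest of the 6 libraries in Lyz2, Cd68, Csf1r and Aif1, whereas Ptprc, Cd14 and Emr1 were higher in every Rnf40-/- library. Without replicate 3 of Rnf40+/+ the difference of Pdgfrb was -0.63 and called lower. The part of macrophages in the level of Pdgfrb was not tested, with or without that replicate. Of 6 endothelial markers, which matter as endothelial cells make PDGF-BB, 5 were tested, of which 3 were called higher, 1 lower and 1 not called, with a median difference of 1.56. Their sums were 282, 209 and 146 in Rnf40+/+ and 234, 333 and 248 in Rnf40-/- libraries, and Emcn, the highest in mean over all 6 libraries but not within Rnf40-/-, was the gene called lower. Tek, the gene not called, had 114.6, 11.2 and 16.0 normalized counts in Rnf40+/+ and 43.8, 73.1 and 68.0 in Rnf40-/- libraries. It thus made up much of the sum of replicate 1 of Rnf40+/+. Pecam1, Cdh5 and Kdr were called higher, and Pecam1 went from 3.75 ± 1.22 to 27.6 ± 8.34 and Cdh5 from 2.76 ± 2.17 to 31.6 ± 8.03 normalized counts (SD, n = 3), in Rnf40+/+ near the limit of detection. The part of endothelial cells in the values of Pdgfb was not tested. The megakaryocyte markers, read because platelets carry PDGF, summed to 439, 381 and 524 in Rnf40+/+ and 282, 290.1 and 252 in Rnf40-/- libraries, and of 3 tested 1 was called higher, 1 lower and 1 not called, with Gp1bb the highest in Rnf40+/+ and Itga2b the highest in Rnf40-/- libraries. Of 5 epithelial markers 2 were tested, with 1 called higher and 1 not called, and their sums lay between 30.6 and 86.0, and no single gene made up most of them in every library. Of 5 neural and glial markers 4 were tested, and limma, edgeR and DESeq2 called 0 of them, with 0 at an unadjusted limma p under 0.05. Their sums lay between 1584 and 2946, mostly from Tubb3, and Olig2, which marks PDGFR-alpha-bearing oligodendrocyte progenitors among other cells, was listed at 0 in every library.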

How the data were processed

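The deposited table holds a signal per gene and library, which the authors made by mapping reads to the mouse transcriptome (mm9) and dividing read counts by DESeq size factors. The submitters' processing notes name, with no role, Bowtie2 (version 2.1.0) and DESeq (version 1.14.0). The library kit keeps the strand, but the counting tool and its strand setting are not given in the sources used here. In each library 100% of the values were whole multiples of 1 read within 0.1 reads, and the reads were recovered from that step. Depth was 17053436 to 26344170 reads on genes.

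Low genes were removed by edgeR (version 4.0.16; filterByExpr on the recovered reads), and 16378 were tested with limma (version 3.58.1; lmFit, eBayes with trend) on log2(normalized count + 1), Rnf40-/- against Rnf40+/+, 3 libraries each, two-sided, with Benjamini-Hochberg adjustment. The pseudocount of 1 understates the change of low genes. The 6 PDGF genes, the pathway lists and the marker lists were chosen with earlier results of these data known, and lists are described by counts and medians alone. Named in each pathway list are up to 3 genes in each direction with the largest log2 difference among those called, with a mean above 15 and no overlap between genotypes, and the gene of highest mean. Also named are the 2 genes of closest profile and the nearest 2 genes with a row on each side of each PDGF gene. Some genes that this rule would name are left out. Genes outside it stand for counts of 5 or fewer, markers or the promoter search, and were chosen after their values were seen.

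Alternatives were size factors and the Wald test of DESeq2 (version 1.42.0), TMM with the quasi-likelihood test of edgeR on the recovered reads (3857 genes higher and 3940 lower), upper-quartile scaling, no filter beyond 1 read, at least 10 reads in every library, pseudocounts of 0.1 and 10, a replicate block, other lengths, and each library left out in turn. Lengths and positions come from the GENCODE annotation of mm9. Python (version 3.11.15), scipy (version 1.17.1) and R (version 4.3.3) were used. The ChIP-seq experiments were not analysed here.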

Additional observations from a re-analysis of the deposited data

How the results depend on the processing

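Pdgfra, Pdgfrb and Pdgfa were called lower under every alternative run, with log2 differences of -1.138 to -1.040, -0.76 to -0.63 and -0.52 to -0.41, and Pdgfb was called under none, at 0.15 to 0.57. Alternatives were run for the 6 PDGF genes, Rnf40, Pdgfrl, Il34, the counts over all genes and the pathway lists, and 2 of the 8 ratios, shares and sums. Of their 338 values, 319 kept direction and side of the threshold or stayed within the allowed move, 4 moved, 2 became called, 13 lost the call and 0 reversed. Among genes followed singly, Pdgfd and Il34 lost calls, and Il34, added after seeing the data, also with the replicate block. Counts of lists moved by at most 2 genes, up or down, in further alternatives.

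Under upper-quartile scaling the difference of Pdgfd was -0.29 and no longer called (adjusted p = 0.0677 in limma with Benjamini-Hochberg adjustment), and 1 co-receptor was called higher. This scaling moved the median of all genes to 0.044. With a library left out, the difference of Pdgfd ranged from -0.46 to -0.20, and that of Pdgfc from -0.30 to -0.12. Over the same omissions, 0 to 1 co-receptors were called higher, 3 to 5 down-regulation genes lower and 0 to 1 class III genes lower. Fewer libraries also give a weaker test, and beyond this the cause was not tested.

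Deviations of Rnf40+/+ and Rnf40-/- libraries with the same replicate number correlated at 0.012, 0.017 and 0.021 over genes. Between libraries with different numbers the correlations ran from -0.053 to 0.037. Whether the numbers pair the libraries cannot be told from these values. With a replicate block, 4021 genes were called higher and 4196 lower, Pdgfc was called at the same difference of -0.21 (adjusted p = 0.0323 in limma with Benjamini-Hochberg adjustment), and no other call of the 6 genes changed. Pdgfb rests on 36 to 76 reads a library, and the part of depth in its spread was not tested.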
